A study of Mus musculus with 4 samples.

Results

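The transcripts of 8 effector cytokines were followed in DNT, the double-negative regulatory T cells of the mouse: Il22, Ifng, Tnf, Lta, Ltb, Osm, Lif and Csf1. They were chosen by name, with earlier results of these data known, among them the genotype difference of Il22 and Ifng. The values in the comparison of genotypes are therefore given as a description, and p-values printed for these 8 are not read as a test of them. All 8 were among the 35275 gene IDs of the deposited table and among the 11625 genes tested, whose mean was 1 RPKM or more (reads scaled to transcript length and library size). RNA was sequenced from 2 libraries of OX40-knockout cells on the C57BL/6 strain and 2 libraries of wild-type C57BL/6 cells, named here by genotype and by the number in the labels. In both groups naive CD4 T cells had been converted to DNT, which were then sorted as CD3+ and TCRαβ+ cells without NK markers, CD4 or CD8. The labels give neither the age of the mice nor the deleted part of Tnfrsf4. Nor do they say that libraries of one genotype came from different mice or cultures, and errors and p-values therefore measure a spread between libraries that may be technical.

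These cytokines let T cells act on their surroundings. IL-22 signals through STAT3 to epithelial cells, while interferon gamma activates macrophages and antigen presentation. TNF and lymphotoxin alpha bind the TNF receptors, and lymphotoxin beta joins lymphotoxin alpha in a membrane complex that signals through the lymphotoxin beta receptor in lymphoid organs. Oncostatin M and LIF belong to the IL-6 family and share the receptor chain gp130, and CSF1 (M-CSF) keeps macrophages alive. OX40, encoded by Tnfrsf4, is a costimulatory TNF receptor family member of activated T cells that signals to NF-kB.

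Many cytokine mRNAs are short-lived because AU-rich elements in the 3'UTR, built from repeats of the pentamer ATTTA (in DNA letters), are bound by decay proteins such as tristetraprolin. The stretch of 30 bases with the most pentamers in each 3'UTR is shown because 7 of the 8 transcripts hold such repeats. Sequences are from GENCODE vM21 transcripts (GRCm38), and capitals mark ATTTA.
Tnf, chr17:35199679-35199708, minus strand: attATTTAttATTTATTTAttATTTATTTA
Ifng, chr10:118445333-118445362, plus strand: ctATTTAttaatATTTAaaactATTTAtat
Il22, chr10:118209882-118209911, plus strand: tttATTTAttataagtatacattttATTTA
Lta, chr17:35203395-35203424, minus strand: aaaagttaagttATTTATTTAtagagaata
Osm, chr11:4240963-4240992, plus strand: tATTTAtaatgtatATTTAatgttaatatt
Lif, chr11:4272414-4272443, plus strand: ATTTAttcaatgtcatATTTAaaatATTTA
Csf1, chr3:107741109-107741138, minus strand: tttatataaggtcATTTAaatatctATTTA

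The pentamer, counted on the transcript strand with overlaps, occurred 6 times in the 521 bases of the Il22 3'UTR, or 11.5 per kilobase. Tnf reached 10.5 and Ifng 9.51 per kilobase, against a median of 1.2 over the 10522 tested genes with an annotated 3'UTR. Of those genes 0.817% were at least as dense as Il22, 1.07% as Tnf and 1.37% as Ifng. Osm (5.9) and Lta (5.25) lay below this trio, and Lif (2.2) and Csf1 (1.89) were nearer the median. By count the trio stood out less: 14.9% of those genes had at least the 6 pentamers of Il22 or of Ifng, and 8.83% at least the 8 of Tnf. The 3'UTRs of Il22, Ifng and Tnf (521, 631 and 764 bases) were shorter than the median of 937.5 bases. Ltb had no pentamer in its 156 bases, whereas 65.6% of those genes had at least 1. The longer element TTATTTATT, which contains the pentamer, was found 5 times in Tnf, 2 times in Lif and once in Il22 and Lta, while 7.09% of those genes had at least 1. A match is a string of letters and not a measured binding site.

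**Figure D1:**
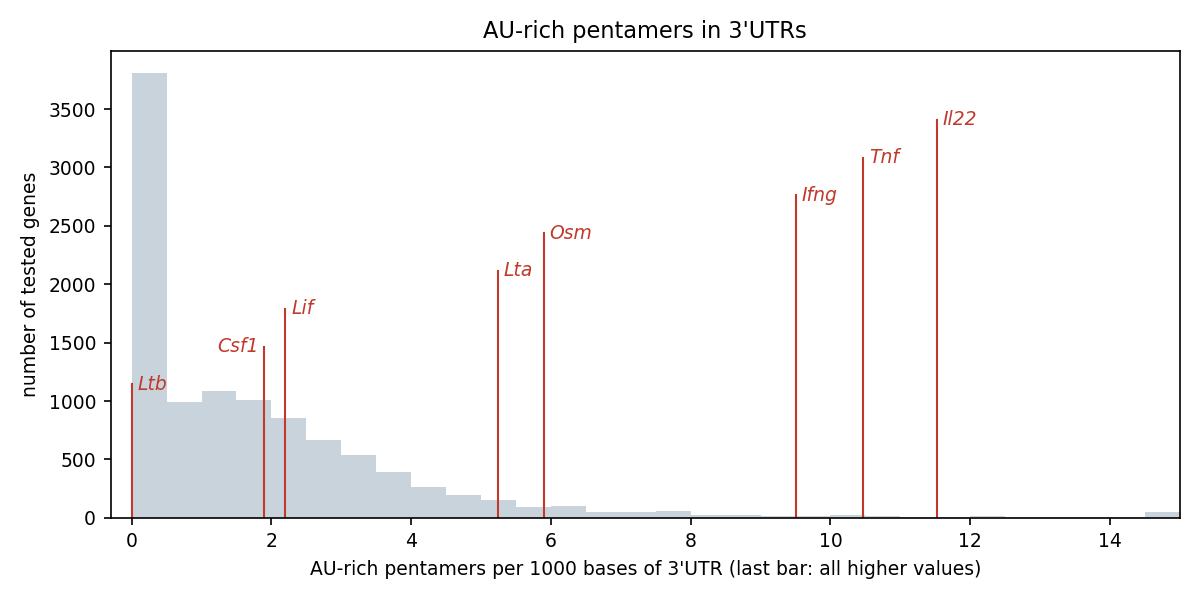
Density of AU-rich pentamers in 3'UTRs, as pentamers per kilobase on the horizontal axis. Grey bars count tested genes in steps of 0.5 (the last bar holds all higher values too), and red lines mark the cytokine genes (the height of a line has no meaning). Il22, Tnf and Ifng lie in the far tail at 9.51 to 11.5, and Ltb stands at 0.

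Levels differed widely. Averaged over the 4 libraries, Ltb stood at 132 RPKM, Lif at 77.0, Osm at 50.4, Ifng at 49.8, Il22 at 35.9, Lta at 34.0, Tnf at 16.9 and Csf1 at 1.43 RPKM. Ltb ranked 824 from the top of all genes, while Csf1, at rank 11041, was read 73 and 52 times in the knockout libraries and 49 and 90 times in the wild-type libraries. Neighbours in this order were not always apart beyond their spread: Osm, with 42.4 to 56.1 RPKM over the libraries, overlapped Ifng at 37.3 to 60.5 RPKM, and Il22 and Lta also overlapped. The table divides reads by the mean length of a gene's annotated transcripts. With the length of the main coding transcript instead, the mean would be 33.8 RPKM for Osm and 52.4 RPKM for Lif, and Osm would move below Il22 and Lta. Ratios of RPKM between libraries do not depend on that length, but log2(RPKM + 1) and the minimum level do, and Csf1 would average 0.682 RPKM, below that minimum.

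**Figure D2:**
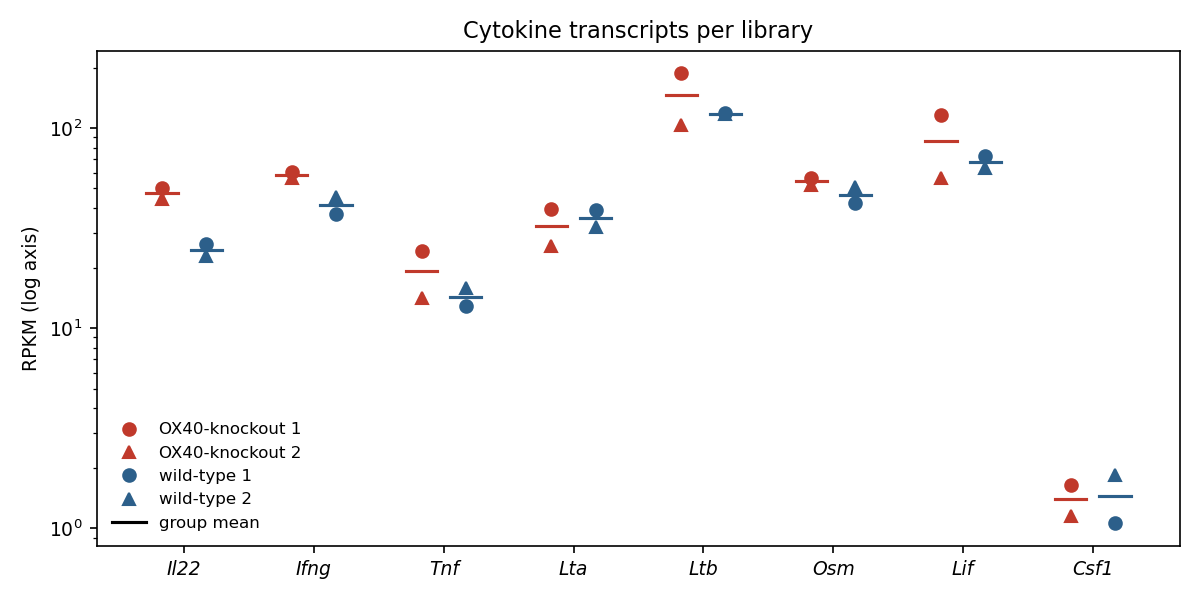
RPKM of each cytokine transcript on a log axis, 1 point per library (circles, replicate 1; triangles, replicate 2), OX40-knockout in red to the left of wild-type in blue, with a bar at each group mean (n = 2). The knockout points of Il22 lie at 50.2 and 44.1 RPKM, against 26.2 and 23.1 RPKM in wild-type, while the knockout points of Ltb and Lif lie on either side of the wild-type points and those of Tnf overlap them.

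In depth the libraries were alike, with totals, inferred from the RPKM steps, of 22220888 and 22571186 reads for OX40-knockout 1 and 2 and of 23215528 and 24395743 reads for wild-type 1 and 2. Tnfrsf4 itself was still read, at 12.1 and 9.38 RPKM in the knockout but 18.2 and 12.3 RPKM in wild-type. As the removed part is unknown, these reads do not check the labels. OX40-knockout 1 was the highest of the 4 libraries for 36.9% of the tested genes, and its difference from OX40-knockout 2 followed the GC content of transcripts. The median of that log2 difference was -0.24 for the fifth of genes with the least GC and 0.30 for the fifth with the most. Of the 8 cytokine genes, 7 were highest in OX40-knockout 1, all but Csf1.

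The comparison asks which transcripts differ between DNT with and without OX40. In limma on log2(RPKM + 1), none of the 8 had an adjusted p under 0.05, and neither had any other gene (0% of those tested). Il22 and Ifng were at an unadjusted p under 0.05, a level that 0.551% of tested genes reached as higher and 0.843% as lower. For 3 of the 8 (Il22, Ifng and Osm) both knockout libraries lay above both wild-type libraries, which held for 8.66% of tested genes, and for none did both lie below, which held for 17.8%. That split of 1007 higher and 2067 lower genes was 1440 and 1485 with TMM scaling, which was not applied to the gene lists below. As the cytokine genes were chosen with this contrast known, nothing is read from these counts. The median log2 change of the 8 was 0.24, against -0.03 over all tested genes. It lies between the changes of Ltb and Lif, which were -0.19 and -0.27 without OX40-knockout 1. The median therefore does not show a rise shared by both knockout libraries. In bulk RNA, fewer cells making a cytokine and less RNA per cell cannot be told apart.

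Il22 (ENSMUSG00000074695) stood at 50.2 and 44.1 RPKM in OX40-knockout 1 and 2, against 26.2 and 23.1 RPKM in wild-type 1 and 2. Both knockout libraries were thus above both wild-type libraries, and the gap between genotypes was wider than that between libraries of a genotype. The means were 47.1 ± 4.36 RPKM in the knockout and 24.7 ± 2.23 RPKM in the wild-type libraries (SD, n = 2 each), 1.91-fold apart. The log2 change, 0.91, had a standard error of 0.13. Within replicate numbers, which the labels do not tie together, it was 0.91 for replicate 1 and 0.90 for replicate 2. With the GC correction these were 1.16 and 0.92. Exact 95% Poisson intervals, which cover counting error only, were 47.5 to 53.1 and 41.5 to 46.7 RPKM in the knockout libraries, from 1239 and 1104 reads. In the wild-type libraries they were 24.3 to 28.3 and 21.3 to 24.96 RPKM, from 676 and 625 reads. The knockout intervals lay above the wild-type intervals. With any 1 library left out the log2 change lay between 0.82 and 1.00, and the change with the GC correction was 1.04.

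The Il22 value depends on how reads were divided with Iltifb, a nearby second copy of the gene on the opposite strand. The table gives Iltifb 7 and 1 reads in the knockout libraries and 0 and 1 in the wild-type libraries. The annotated transcripts were 97.3% identical, with 29 differing bases, and the coding sequences 98.3%, with 9. Bases 158 to 217 of the coding sequences, the 60-base stretch with the most differences, show how alike the copies are (capitals mark the bases that differ).
Il22: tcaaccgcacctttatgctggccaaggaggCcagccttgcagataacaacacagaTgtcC
Iltifb: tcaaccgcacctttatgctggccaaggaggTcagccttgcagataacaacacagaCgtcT
Of all windows of 36 bases in the Il22 transcript 49.3% also occur in Iltifb, and of windows of 100 bases 20.4%. Neither the read length nor the handling of reads that fit both copies is known here, and the level of Il22 is uncertain in every library.

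Ifng (ENSMUSG00000055170) lies close to Il22 on mouse chromosome 10 and was also higher in both knockout libraries. It stood at 60.5 and 56.2 RPKM in OX40-knockout 1 and 2, against 37.3 and 45.2 RPKM in wild-type 1 and 2. The groups did not overlap, but the wild-type libraries were further from each other than the knockout libraries were. The means were 58.3 ± 3.08 RPKM in the knockout and 41.2 ± 5.64 RPKM in wild-type (SD, n = 2 each), with a log2 change of 0.50 and a standard error of 0.14. Within replicate numbers the log2 change was 0.69 and 0.31, and with 1 library left out it lay between 0.36 and 0.63. Without wild-type 1 Ifng was no longer at an unadjusted p under 0.05. Mdm1, a named gene beside Il22 on the side away from Ifng, stood at 3.78 and 3.39 RPKM in the knockout, with 3.88 and 3.85 RPKM in wild-type.

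Osm (ENSMUSG00000058755) had 56.1 and 52.1 RPKM in OX40-knockout 1 and 2, against 42.4 and 50.8 RPKM in wild-type 1 and 2. Its groups did not overlap, yet OX40-knockout 2 and wild-type 2 had Poisson intervals that overlapped, at 49.7 to 54.6 and 48.5 to 53.1 RPKM. The log2 change of 0.22 had a standard error of 0.13, and was 0.40 within replicate 1 and 0.04 within replicate 2. It was 0.09 without wild-type 1 and 0.34 without wild-type 2.

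Lif (ENSMUSG00000034394), the neighbour of Osm on chromosome 11, had another pattern. It stood at 116 and 56.1 RPKM in OX40-knockout 1 and 2, against 72.4 and 63.4 RPKM in wild-type 1 and 2. OX40-knockout 1 was the highest library and OX40-knockout 2 the lowest. The mean log2 change of 0.25, with a standard error of 0.35, was -0.27 without OX40-knockout 1.

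Ltb (ENSMUSG00000024399) and Tnf (ENSMUSG00000024401) stand side by side on chromosome 17 and, like Lif, were far apart between the knockout libraries. Ltb was at 188 and 104 RPKM in OX40-knockout 1 and 2, against 119 and 118 RPKM in wild-type 1 and 2. The wild-type libraries were nearly equal, and the knockout libraries lay on either side of them. Tnf was at 24.5 and 14.1 RPKM in OX40-knockout 1 and 2, against 12.9 and 15.9 RPKM in wild-type 1 and 2, so OX40-knockout 2 lay within the wild-type range. The log2 changes were 0.24 (standard error 0.29) for Ltb and 0.36 (0.28) for Tnf, and without OX40-knockout 1 they were -0.19 and -0.02. With the GC correction they were 0.07 for Ltb and 0.36 for Tnf.

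A correction for GC content moved the difference between the knockout libraries to unequal degrees. The log2 difference of OX40-knockout 1 minus OX40-knockout 2 was 1.04 for Lif, 0.85 for Ltb and 0.75 for Tnf, and 4.46%, 7.16% and 9.2% of tested genes were at least as far apart in either direction. Ltb is the richest of the 8 in GC (62.1%), and its difference was 0.40 after the GC correction, while those of Lif (0.82) and Tnf (0.70) stayed nearer their first values. Il22, the poorest in GC (41.8%), moved the other way, with 0.19 before and 0.43 after the correction. All 8 lay between -0.10 and 0.82 after it.

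Lta (ENSMUSG00000024402), which lies next to Tnf and encodes the soluble lymphotoxin, was higher in replicate 1 than in replicate 2 of each genotype. It stood at 39.2 and 25.9 RPKM in OX40-knockout 1 and 2, against 39.1 and 31.9 RPKM in wild-type 1 and 2. The replicate 1 libraries differed by less than their Poisson intervals (log2 difference 0.0067), while in replicate 2 the knockout library was below wild-type by a log2 difference of -0.29, with intervals apart. With the GC correction these differences were -0.17 and -0.22. The log2 change of -0.14 (standard error 0.23) was 0.15 without OX40-knockout 2 and 3.2e-05 without wild-type 1. The 4 listed marker genes of basophils and mast cells summed to 4.73 and 73.3 RPKM in OX40-knockout 1 and 2 and to 9.08 and 83.6 RPKM in wild-type 1 and 2. Replicate 2 was far higher in both genotypes. The 4 listed NK cell marker genes summed to 44.0 and 180 RPKM in the knockout, with 100 and 183 RPKM in wild-type, most of it Klrb1c. Ncr1 had 0.183 and 7.49 RPKM in the knockout and 0.408 and 7.93 RPKM in wild-type. Like Klra8 and Klri2, it was higher in replicate 2 of both genotypes. The sort was set to exclude NK markers at the protein level, but not necessarily these 4. The part of these cells in the cytokine values was not tested.

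Other markers bear on the sort. Cd3e, part of the T cell receptor complex, ranged from 248 to 332 RPKM. Cd4 had 10.1 RPKM in OX40-knockout 1 and 0.82 to 2.06 RPKM in the other libraries. Cd8a had 16.6 and 9.03 RPKM in the knockout, with 10.45 and 10.4 RPKM in wild-type, and Cd8b1 ranged from 2.0 to 4.44 RPKM. Of the αβ T cell receptor constant genes, Trac ranged from 159 to 279 RPKM, Trbc1 from 208 to 341 RPKM and Trbc2 from 482 to 646 RPKM. Tcrg-C1, a γδ T cell constant gene, ranged from 83.5 to 102 RPKM. The other listed γδ genes, Trdc and Trgc1, were not found by name. The 6 myeloid markers summed to 3.86 and 10.4 RPKM in OX40-knockout 1 and 2 and to 5.11 and 13.3 RPKM in wild-type 1 and 2. Their sum was thus higher in replicate 2 of each genotype. The 4 B cell markers summed to between 2.54 and 4.8 RPKM, with Ms4a1 listed at 0. Among 5 markers of type 3 innate lymphoid cells, which also make IL-22, the sum was 37 and 55 RPKM in the knockout, with 59.9 and 58.5 RPKM in wild-type, most of it Kit. The parts of these cells in the Il22 values were not tested.

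Csf1 (ENSMUSG00000014599) was the lowest of the 8, at 1.65 and 1.16 RPKM in OX40-knockout 1 and 2, against 1.06 and 1.86 RPKM in wild-type 1 and 2. The groups overlapped, and replicates 1 and 2 went in opposite directions, with log2 differences between genotypes of 0.36 and -0.40. The log2 change of -0.02 (standard error 0.26) was 0.00018 with median-of-ratios scaling.

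**Figure D3:**
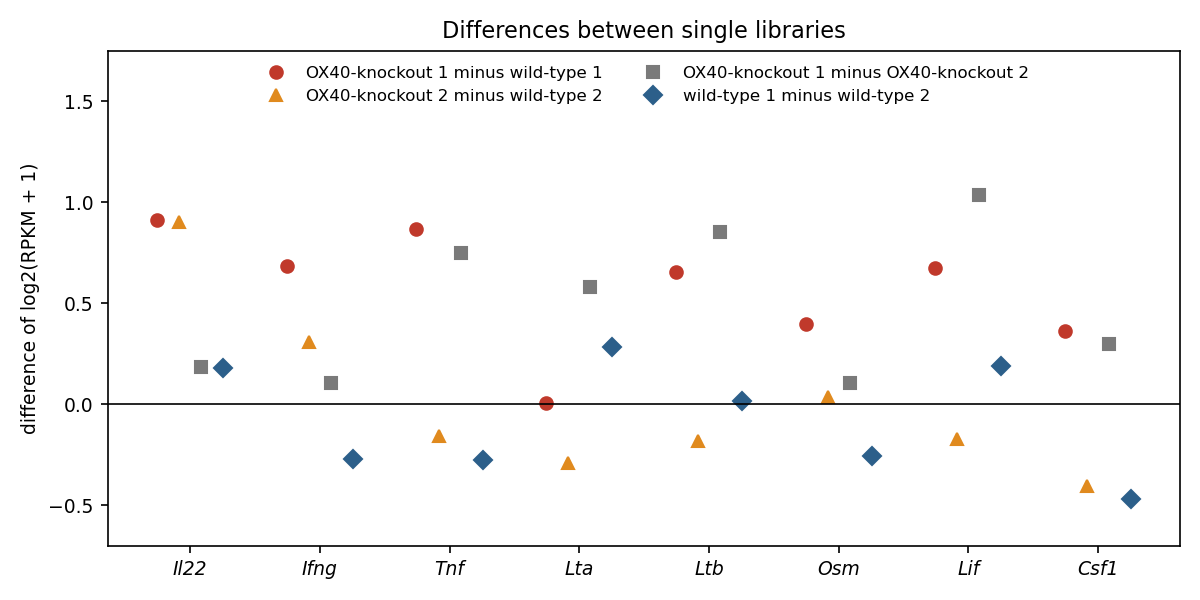
Differences of log2(RPKM + 1) between single libraries for each cytokine gene. Red circles and orange triangles compare genotypes within replicates 1 and 2, and grey squares and blue diamonds compare libraries of one genotype. No GC correction was applied. For Il22 the genotype differences (0.91 and 0.90) lie close together and exceed both differences within a genotype (0.19 and 0.18). For Lif, Ltb and Tnf the 2 knockout libraries are 0.75 to 1.04 apart.

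Promoters are shown for Ltb, Lif and Tnf, whose knockout libraries were farthest apart, and for Lta, the neighbour of Tnf with another pattern. They come from RefSeq (GRCm38.p6), which held 7 of the 8 genes and not Osm, and reach from 250 bases before the RefSeq start to the first annotated start. Capitals mark the NF-kB consensus, the AP-1 motif TGANTCA (both on either strand) and TATAAA on the gene's strand.
Ltb, chr17:35194257-35194438, plus strand: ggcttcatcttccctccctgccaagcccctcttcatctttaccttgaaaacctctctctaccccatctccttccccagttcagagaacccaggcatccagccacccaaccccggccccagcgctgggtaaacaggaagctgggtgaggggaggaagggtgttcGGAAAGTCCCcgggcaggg
Lif, chr11:4257318-4257556, plus strand: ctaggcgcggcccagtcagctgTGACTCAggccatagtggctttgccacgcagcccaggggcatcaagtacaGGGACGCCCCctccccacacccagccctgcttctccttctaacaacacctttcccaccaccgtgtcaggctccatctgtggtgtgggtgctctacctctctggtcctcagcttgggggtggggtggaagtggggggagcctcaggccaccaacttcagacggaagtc
Tnf, chr17:35202008-35202257, minus strand: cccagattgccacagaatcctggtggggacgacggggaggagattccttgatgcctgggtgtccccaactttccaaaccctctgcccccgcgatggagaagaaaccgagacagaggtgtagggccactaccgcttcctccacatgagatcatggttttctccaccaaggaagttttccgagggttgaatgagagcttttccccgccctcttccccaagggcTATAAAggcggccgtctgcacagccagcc
Lta, chr17:35205352-35205601, minus strand: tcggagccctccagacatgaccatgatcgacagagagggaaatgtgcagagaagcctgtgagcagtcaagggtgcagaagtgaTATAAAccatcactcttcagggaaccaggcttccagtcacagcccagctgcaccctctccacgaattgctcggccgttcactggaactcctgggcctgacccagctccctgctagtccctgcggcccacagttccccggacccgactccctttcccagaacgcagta

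Motifs were counted over the whole 250 bases before the RefSeq start in every gene. The NF-kB consensus occurred once each in the windows of Ltb, Lif and Csf1, and in 7.25% of 32851 RefSeq promoters. It was not in those of Il22, Ifng, Tnf or Lta, so Ltb, Lif and Tnf did not share it. TATAAA was in the windows of Il22, Ifng, Tnf and Lta, against 7.59% of all promoters, and TGANTCA was in that of Lif alone, against 6.75%. The NFAT core GGAAA was in all 7, against 55.6% of all promoters, and in Ltb it lies inside the NF-kB match. A match or its lack says nothing of what binds there.

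Genes that read or relay these cytokines were taken from lists chosen for these pathways. Of 12 receptor genes 8 reached the minimum level and none of these passed the limma test. Their median log2 change was -0.05. Ifngr1, the ligand-binding chain for interferon gamma, was highest, with 614 and 543 RPKM in the knockout and 615 and 573 RPKM in wild-type. Tnfrsf1b, a TNF receptor gene, had 63.1 and 66.8 RPKM in the knockout and 65.2 and 71.6 RPKM in wild-type. In 1 gene both knockout libraries were above wild-type and in 1 both were below, arrangements that 8.66% and 17.8% of all tested genes had. Tnfrsf1a, the other TNF receptor gene, was the one above, with 44.7 and 41.05 RPKM in the knockout and 33.5 and 40.6 RPKM in wild-type. Il10rb, the shared chain of the IL-22 and IL-10 receptors, was the one below, with 15.6 and 22.4 RPKM in the knockout and 23.6 and 25.4 RPKM in wild-type. Il22ra1, the specific IL-22 receptor chain, was listed at 0 in every library, Osmr reached 0.128 RPKM at most, and the CSF1 receptor gene Csf1r 0.182 RPKM.

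Of 12 signalling and feedback genes all reached the minimum level and none passed, with a median log2 change of 0.09. Both knockout libraries were above wild-type in 3 (Stat3, Traf2 and Tyk2) and below in 2 (Jak1 and Jak2), against 8.66% and 17.8% of all tested genes. Jak1, a kinase of the IL-22, interferon gamma and IL-6 family receptors, had 444 and 509 RPKM in the knockout and 550 and 533 RPKM in wild-type. Jak2 had 29.5 and 31.4 RPKM in the knockout and 35.55 and 34.4 RPKM in wild-type. Stat3, which carries IL-22 and IL-6 family signals, had 198 and 168 RPKM in the knockout and 148 and 164 RPKM in wild-type. The margins of Traf2 and Tyk2 were smaller, with log2 changes of 0.06 and 0.11. The interferon gamma target Irf1 had 299 and 126 RPKM in the knockout and 188 and 126 RPKM in wild-type, so the replicate 2 libraries were equal.

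Of 13 transcription factor genes tied to Il22 and Ifng all reached the minimum level and none passed. Batf3 alone had an unadjusted p under 0.05, as had 0.551% of all tested genes as higher and 0.843% as lower, and the median log2 change was 0.17. In 4 the knockout libraries lay above the wild-type libraries (8.66% of all tested genes), and in none below (17.8%). Batf3, a partner of AP-1 factors, had 22.7 and 20.2 RPKM in the knockout and 9.98 and 12.95 RPKM in wild-type, a log2 change of 0.85 (standard error 0.17). Ahr, the aryl hydrocarbon receptor that promotes Il22 transcription, had 13.7 and 8.75 RPKM in the knockout and 8.33 and 7.83 RPKM in wild-type. Notch1 had 220 and 137 RPKM in the knockout and 135 and 135 RPKM in wild-type. Runx3, a partner of T-bet at Ifng, had 385 and 327 RPKM in the knockout and 305 and 324 RPKM in wild-type. For Ahr, Notch1 and Runx3 the margin was wide in replicate 1 and narrow in replicate 2. Bhlhe40 was the most abundant, with 375 and 461 RPKM in the knockout and 399 and 398 RPKM in wild-type. Tbx21, encoding T-bet, had 15.9 and 19.4 RPKM in the knockout and 14.6 and 18.75 RPKM in wild-type. Eomes, encoding a related T-box factor, had 75.5 and 133 RPKM in the knockout and 114 and 150 RPKM in wild-type, and both overlapped.

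Of 13 genes for RNA-binding regulators and shedding proteases 12 reached the minimum level and none passed, with a median log2 change of -0.02. Both knockout libraries were above wild-type in 2 (Zc3h12a and Rhbdf2) and below in 3 (Adam17, Hnrnpd and Rc3h1), where the shares over all tested genes were 8.66% and 17.8%. Zc3h12a, encoding the ribonuclease Regnase-1 that degrades cytokine mRNAs, had 28.1 and 18.9 RPKM in the knockout and 16.0 and 16.2 RPKM in wild-type. Zfp36, encoding tristetraprolin, had 156 and 73.5 RPKM in the knockout and 80.2 and 49.2 RPKM in wild-type. Its groups overlapped, and replicate 1 was above replicate 2 in each genotype. Its relative Zfp36l2 had 154 and 126 RPKM in the knockout and 129 and 137 RPKM in wild-type. Adam17, encoding the protease that releases TNF from the membrane, had 29.5 and 32.9 RPKM in the knockout and 34.9 and 34.9 RPKM in wild-type. Its partner gene Rhbdf2 had 28.7 and 19.8 RPKM in the knockout and 17.2 and 18.7 RPKM in wild-type. The log2 changes of Hnrnpd and Rc3h1, encoding Roquin-1, were -0.14 and -0.13.

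**Figure D4:**
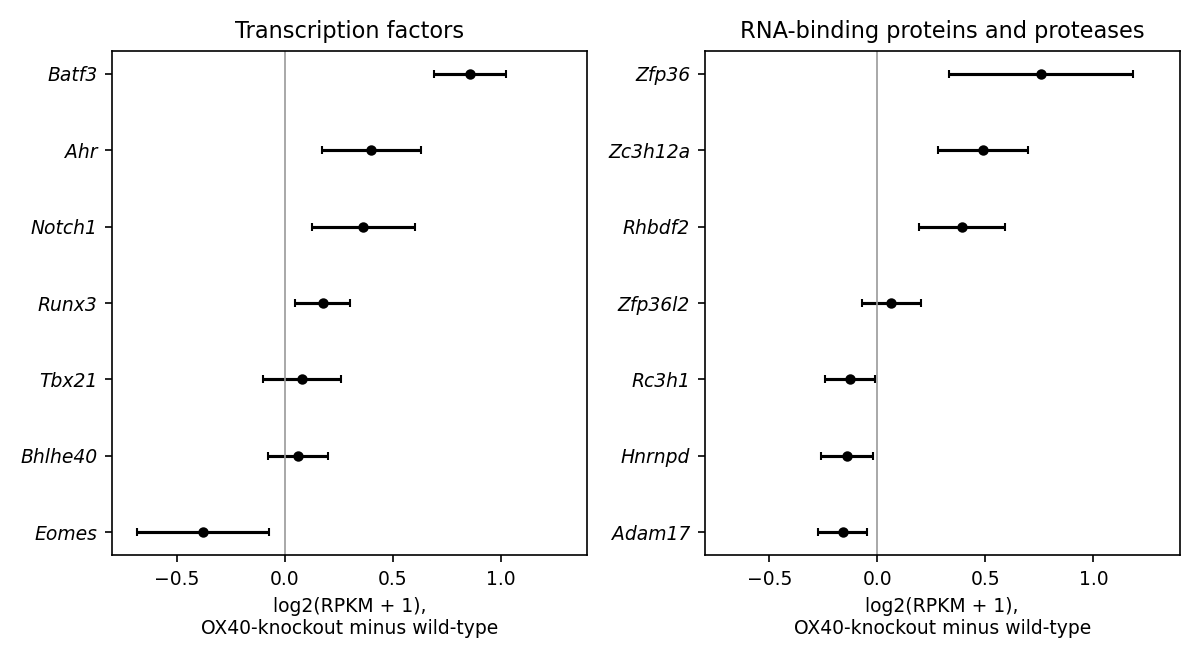
Log2 change of RPKM + 1, OX40-knockout minus wild-type, for the genes named in the text from the transcription factor list and from the list of RNA-binding proteins and proteases, with bars of 1 standard error from limma (n = 2 libraries per group). Batf3 is farthest to the right at 0.85, and no gene shown passed the threshold.

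By the Euclidean distance between log2(RPKM + 1) profiles, centred on each gene's mean over the 4 libraries, the genes nearest to Il22 among 8592 candidates included Papss1 (0.11) and Oit3 (0.30). Papss1 had 16.4 and 12.9 RPKM in the knockout and 7.49 and 6.78 RPKM in wild-type. Within a distance of 0.15 lay 1 gene for Il22, 3 for Ifng and between 16 and 168 for the other 6. Profiles were not scaled, so this count also depends on the size of a gene's differences. It does not show that the pattern of Il22 is unusual. Cd38, Tnfrsf8 and Hip1 were nearest to Ifng. Tnfrsf8, which encodes the TNF receptor family member CD30, had 67.7 and 67.2 RPKM in the knockout and 41.2 and 52.0 RPKM in wild-type. Nearest to Tnf were Gnas, Fbxo31 and Vav2, to Ltb Cd8a, Mapk7 and Pfkm, to Lif Piezo1, Ighm and Grn, and to Osm Tnfrsf1a, Pbx2 and Fam122a. Nearest to Lta were Myl10, Dgka and H2-Q6, and to Csf1 Tsen34, Nfkbid and Fam8a1. Among the 8 cytokine genes themselves Lif and Ltb were the closest pair (0.18), followed by Ltb and Tnf (0.25) and by Ifng and Osm (0.28), while Il22 and Ifng were 0.52 apart. Distances over 4 libraries are a description.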

How the data were processed

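Total RNA of 4 libraries was sequenced. The authors deposited 1 table of RPKM values, and per the submitters' processing notes reads were aligned with Bowtie 0.12.2 to mm8. The sources used here give no annotation, counting tool, strand use or handling of multi-mapping reads. Library totals were inferred from the most frequent value step of single-transcript genes at their GENCODE vM21 length, taken as 1 read. They gave whole reads within 0.02 for 82.6% to 83.2% of such genes above 0 and, within 0.005, for all libraries of the cytokine genes, at lengths close to the mean annotated transcript length. Reads may here mean pairs. GENCODE vM21 (GRCm38) named 34490 of 35275 IDs and gave lengths, GC content and 3'UTRs (transcript with the longest coding sequence). Its coordinates are the reference's, since the table has none. The build in the notes, mm8, differs from GRCm38, and how it goes with these matches of IDs and lengths is not known here. 

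log2(RPKM + 1) was fitted with limma 3.58.1 in R 4.3.3 (mean-variance trend, no block, all 4 libraries) over the 11625 genes averaging 1 RPKM or more, with Benjamini-Hochberg adjustment and a threshold of 0.05. The fit was also run on simulated counts with the same dispersion for every gene and no GC or replicate effect. That run checks the code and not how well the model suits the spread of these libraries. For 2 libraries a group, the smallest p of an exact two-sided permutation test is 0.333. Alternatives were another pseudocount (0.1), no filter, TMM (unweighted), median-of-ratios and quantile scaling, a replicate block, leaving out each library and, added after the data were seen, a GC correction (loess on transcript GC content). Members and gene lists were chosen with earlier results of these data known. Named genes are all 8 members, the 3 nearest profiles of each (mean of at least 5 RPKM, named genes), neighbours, Tnfrsf4, and from each of the 5 lists of receptors, signalling, transcription factors, RNA-binding regulators and other cytokines the 3 highest genes and those whose groups did not overlap. Marker lists are given by their sums and some markers. A few others (Tbx21, Eomes, Il13, Il24, Il22ra1, Osmr, Csf1r and low cytokine genes) were named beyond that rule, after their values were seen. Some listed genes are not reported here by name. Python 3.11.15, pandas 2.3.3 and Biopython 1.88 were used.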

Additional observations from a re-analysis of the deposited data

How the results depend on the processing

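None of 96 pairs of a cytokine gene and an alternative setting passed the threshold. Of the 72 whose log2 change can move (no filter and the replicate block leave it as it is), 64 kept its direction and 8 reversed. Il22, Ifng and Osm kept theirs under every alternative run. Their groups did not overlap, so leaving out 1 library could not have reversed them. Leaving out 1 library gave log2 changes of -0.019 to 0.73 for Tnf, -0.43 to 0.15 for Lta, -0.19 to 0.66 for Ltb, -0.27 to 0.77 for Lif and -0.26 to 0.22 for Csf1. Csf1 was also reversed with median-of-ratios scaling, at 0.00018. The number of genes past the limma threshold was 0 with the values as reported and 1 with quantile normalization (Gm28438), and 0 to 1 with a library left out (Gm47283 without wild-type 2). Genes at an unadjusted p under 0.05 numbered 162, against 603 with no filter, 436 with the GC correction and replicate block, and 76 to 3832 with a library left out (3832 without OX40-knockout 2, 524 without OX40-knockout 1, 77 without wild-type 1 and 76 without wild-type 2). Genes whose groups did not overlap numbered 3074, against 5393 with no filter and 5488 to 9972 with a library left out, where 1 library stands for a group and is assumed to vary like the others. Their split was 1007 higher and 2067 lower, against 1440 and 1485 with TMM factors. The cause of these shifts was not tested, save that more genes enter with no filter. With the replicate number as a block, 5 genes were called (Wdfy1, Dynlt1b, Tmem181b-ps, Gm28438 and Gm47283, picked after their values were seen) and 373 were at an unadjusted p under 0.05. With the GC correction added to the block, 0 were called. Nothing in the labels ties equal replicate numbers together, and deviations of the replicate 1 libraries correlated at 0.469 across genes. With 2 libraries per group, a lack of calls does not show that transcripts were alike.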

Other observations

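Il2, Il3, Il9, Il17f and Il21 were under 1 RPKM in every library. Il24, which encodes an IL-20 family cytokine related to IL-22, had 34.15 and 6.21 RPKM in OX40-knockout 1 and 2, against 9.16 and 6.43 RPKM in wild-type 1 and 2, with overlapping groups. Il17a was low but higher in both knockout libraries, 4.19 and 2.84 RPKM against 1.545 and 1.89 RPKM in wild-type. Il10 had 25.2 and 9.40 RPKM in the knockout and 7.23 and 4.57 RPKM in wild-type. Tnfsf10, encoding the death ligand TRAIL, had 12.3 and 11.5 RPKM in the knockout and 9.48 and 9.33 RPKM in wild-type. Il16 was below wild-type, with 16.8 and 20.2 RPKM in the knockout and 22.5 and 24.1 RPKM in wild-type. Tgfb1 was the most abundant, with 338 and 262.5 RPKM in the knockout and 268 and 263 RPKM in wild-type. Fasl overlapped between genotypes, with 10.6 and 24.8 RPKM in the knockout and 20.3 and 32.2 RPKM in wild-type, and replicate 1 was below replicate 2 in each genotype. None of the 11 genes of this list at the minimum level passed the limma test. In it 2 (Il10 and Il17a) had an unadjusted p under 0.05 (0.551% of all tested genes as higher, 0.843% as lower). The median log2 change was 0.40, against -0.03 over all tested genes. That median is the value of Il13, with 16.4 and 3.53 RPKM in OX40-knockout 1 and 2, against 6.935 and 4.73 RPKM in wild-type 1 and 2. OX40-knockout 2 was thus the lowest library for Il13, and the median does not show a shift shared by both knockout libraries.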
